A study of Mus musculus with 4 samples.

Results

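The genes described here carry inhibitory transmission by GABA and glycine in mouse retina. The 29 genes were taken by their symbols from a list of receptor subunits, enzymes, transporters, postsynaptic proteins and chloride transporters, and all 29 were found among the 43280 genes of the deposited table. Retinas came from wildtype mice (strain C6/BL6J as labelled), and their mRNA was sequenced. In the STZ group, streptozotocin, which destroys the pancreatic beta cells that make insulin, was injected on 5 days (50 mg/kg a day) beginning at an age of 6 weeks, and blood glucose over 25 mM was looked for after a further 10 days. The control group was injected with citrate buffer. Mice of both groups were 18 weeks old at collection per the protocol, but the table's column names carry the tag 8W, whose meaning is not given, so the time since the injections is uncertain. There were 2 libraries in each group, distinguished by the column tags 2L and 4R. Whether a group's libraries represent different animals is not in the labels, so every p-value reflects library-to-library spread that may be technical.

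In the retina, GABA and glycine are released mainly by amacrine cells, and GABA also by horizontal cells. GABA-A and glycine receptors are pentameric chloride channels, and rho subunits form a slower, sustained kind of GABA-gated channel known from the axon terminals of bipolar cells. GABA-B receptors act through G proteins and work as dimers of both subunits. The direction of chloride flow depends on transporters that load chloride into the cell or extrude it.

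Recovered gene reads numbered 33166680 (STZ 2L), 39299653 (STZ 4R), 29352330 (control 2L) and 31973786 (control 4R). Rod markers took 2.95% to 4.12% of the normalized counts per library, and none of the 19 horizontal and amacrine cell markers was at 0. Of 18 tested amacrine and horizontal markers, 8 had estimates above 0 and 10 below, at a median log2 fold change of -0.023, and their counts summed to 44851 and 44972 in STZ, against 48849 and 47473 in controls. Both STZ libraries lay below both controls for 5 of these 18 markers and above for 1, against 14.3% of all tested genes each way. Estimates lay below 0 for 9 of 10 ganglion cell markers (median -0.091) and 8 of 9 rod markers (median -0.11). They did so for 4 of 8 Müller glia markers (median 0.039) and for 51.1% of all tested genes. No marker of any list passed in limma. The amacrine and horizontal transcription factor gene Tfap2b had 4106 and 4592 normalized counts in STZ, against 5292 and 4018 in controls. The libraries also differed in tissue next to the retina. A list of 14 lens markers took 5.30% (STZ 2L) and 0.0103% (STZ 4R) of the normalized counts, against 0.0094% (control 2L) and 0.00142% (control 4R). A list of 12 cornea and conjunctiva markers took 0.0345% (STZ 2L) and 0.0361% (STZ 4R), against 0.00571% (control 2L) and 0.00284% (control 4R). The 11 pigment epithelium and melanocyte markers took 0.0298% and 0.02% in STZ 2L and STZ 4R, against 0.00669% and 0.0295% in control 2L and control 4R. What part these tissues had in the values below was not tested unless a value is given.

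Sequences upstream of a RefSeq start of 4 genes are shown because these genes form the pairs that the levels below turn on: the neighbouring rho receptor genes, and the genes of the GABA-making enzymes. Each comes from the 250 bases upstream of the RefSeq start (GRCm38.p6, plus strand, 5′ to 3′) and stops at the first base that GENCODE M21 annotates as exon. For Gabrr1, Gabrr2 and Gad2 that base is the annotated gene start. For Gad1 the annotated gene begins further upstream, at 70553072 on chromosome 2, so the Gad1 stretch lies inside the annotated gene. Capitals mark the letters TAATCC or its reverse GGATTA, the core bound by homeodomain factors such as OTX2 and CRX, which are expressed in photoreceptors and bipolar cells.
Gabrr1 (chr4:33132306-33132520): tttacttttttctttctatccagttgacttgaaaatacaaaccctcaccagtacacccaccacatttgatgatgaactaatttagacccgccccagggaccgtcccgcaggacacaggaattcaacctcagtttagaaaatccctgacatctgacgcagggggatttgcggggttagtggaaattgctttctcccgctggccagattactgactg
Gabrr2 (chr4:33062862-33062998): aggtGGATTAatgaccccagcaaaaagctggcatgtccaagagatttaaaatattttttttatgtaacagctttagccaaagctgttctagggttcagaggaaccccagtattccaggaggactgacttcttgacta
Gad1 (chr2:70561879-70562041): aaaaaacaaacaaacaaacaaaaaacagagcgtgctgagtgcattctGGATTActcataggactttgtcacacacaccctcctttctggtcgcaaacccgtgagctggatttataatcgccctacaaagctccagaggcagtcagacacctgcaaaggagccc
Gad2 (chr2:22622077-22622204): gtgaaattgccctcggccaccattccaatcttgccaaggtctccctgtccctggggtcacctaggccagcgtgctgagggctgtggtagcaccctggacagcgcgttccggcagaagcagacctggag
Searched on both strands, the 6 letters stood in the 250-base window of Gabrr2 and of Gad1 and in neither window of Gabrr1 or Gad2. Of 32851 promoter windows of that length in the table, 6.25% held them, and of the 25 described genes with a window, 3 did, the third being Gabra2. A match is a description of letters and shows no binding.

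The levels of these genes spanned from 0 to 4408 normalized counts per kilobase of exon, a scale used so that long and short genes can be set side by side. Exon lengths came from GENCODE M21, on the mm10 build that the libraries were aligned to. Slc12a5, which encodes the neuronal chloride extruder KCC2, stood highest in every library, at a mean of 4408 ± 444 normalized counts per kilobase (SD over 4 libraries). No other gene's range reached its range. The next means were those of the transporters: Slc6a11, a GABA uptake transporter, at 2209 ± 452, Slc32a1, which loads GABA and glycine into synaptic vesicles, at 2178 ± 267, and Slc6a9, the glycine uptake transporter GlyT1 of glycinergic amacrine cells, at 1843 ± 332. Ranges over the libraries overlapped among these 3, so their order is not separated. The range of Slc6a9 also overlapped that of Gabrr1, the receptor gene with the highest mean. The lowest values of Slc6a11, at 1744, and of Slc32a1, at 1869, lay above the highest of Gabrr1, at 1711. Per kilobase of coding sequence Gad1, at 4844, stood above Slc32a1, at 3869. In all, 19 of the 28 pairs of neighbours in the order had overlapping ranges, and the order of the genes correlated between any pair of libraries with a Spearman rho of 0.993 to 0.998, across genes that are not independent replicates.

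**Figure D1:**
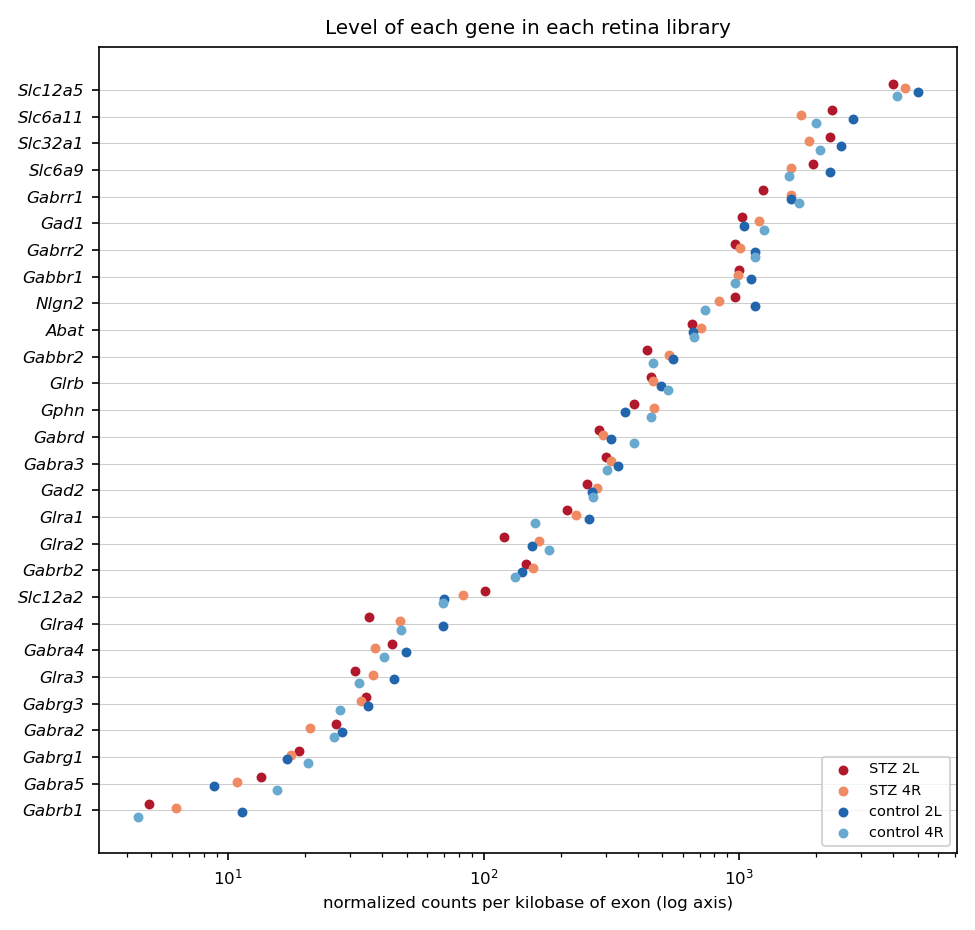
Level of each gene in each library, in normalized counts per kilobase of exon on a log axis, ordered by the mean, with points for STZ 2L, STZ 4R, control 2L and control 4R. Slc12a5 lies at the top with a mean of 4408 and Gabrb1 at the bottom with 6.72; Gabra6, at 0 in all libraries, is not drawn.

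Among receptor genes, the rho pair and the GABA-B pair had higher means per kilobase of exon than every GABA-A and glycine receptor subunit described here. Per kilobase of coding sequence this did not hold throughout: Glrb, at 1512, stood above Gabbr2, at 1172, and Gabbr1, at 2742, stood above Gabrr1, at 2440, and Gabrr2, at 1531. Per kilobase of exon, Gabrr1 averaged 1537 ± 207 and Gabrr2 1069 ± 97.9, while Gabbr1 averaged 1017 ± 68.0 and Gabbr2 494 ± 55.5 (SD over 4 libraries). The highest glycine receptor gene was Glrb, the beta subunit that ties the receptor to the scaffold, at 483 ± 35.3, and its range overlapped that of Gabbr2. The highest GABA-A subunits among those described were Gabrd, the delta subunit known from extrasynaptic receptors, at 320 ± 46.7, and Gabra3 at 314 ± 16.1, whose ranges overlapped. Summed per kilobase, the rho pair came to 2202 and 2604 in STZ and to 2757 and 2862 in controls. The 10 GABA-A subunits described came to 871 and 891 in STZ and to 942 and 958 in controls, but they are not the whole family. A list of 7 further GABA-A and rho subunits summed to 9244 and 9595 normalized counts in STZ and to 9207 and 8894 in controls, without correction for length, so no rank of GABA-A receptors as a whole is given.

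**Figure D2:**
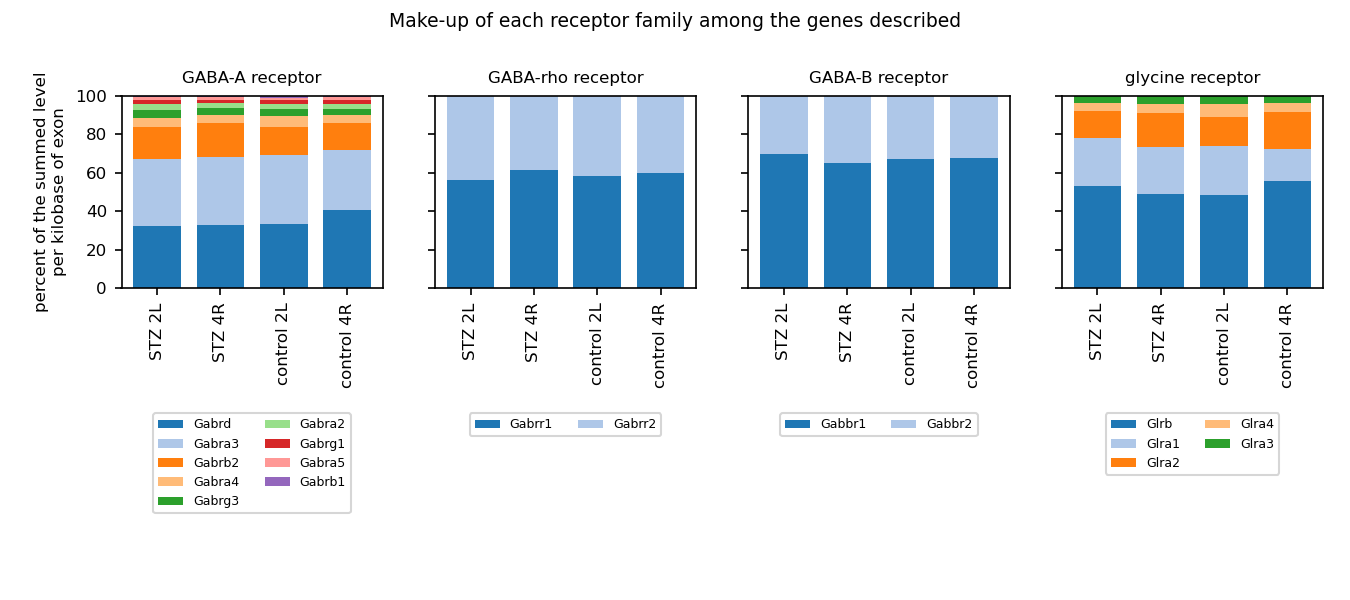
Share of each subunit in the summed level per kilobase of exon of its receptor family, in percent, for STZ 2L, STZ 4R, control 2L and control 4R. Only the genes described here enter, Gabra6 is at 0, and the shares depend on the exon lengths used. Glrb takes between 48.5% and 55.8% of the glycine receptor sum, and Gabrr1 between 56.1% and 61.4% of the rho sum.

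The comparison of STZ with control retina asks whether these transcripts differ in retina of mice made hyperglycaemic. None of the 28 genes tested passed. Gabra6 had 0 reads in all libraries and was not tested. With limma on log2(value + 1) over 18127 genes, 0 described genes were called higher and 0 lower at an adjusted p of 0.05, where 0.0% of all tested genes were called in either direction. Every described gene had an adjusted p of 0.999 in limma. At an unadjusted p under 0.05 limma gave 0 of the 28, against 2.31% of all tested genes higher and 0.447% lower. On the recovered reads, edgeR, limma-voom and DESeq2 also gave 0 described genes at an unadjusted p under 0.05, against 2.88% (edgeR), 1.75% (voom) and 2.65% (DESeq2) of all tested genes higher, and 0.392%, 0.386% and 0.281% lower. After adjustment none of these tools called a described gene, while DESeq2 called 0.259% of all tested genes higher, edgeR and voom 0.0%, and each of them 0.0% lower. The authors' deposited table held 0.281% of its tested genes as higher and 0.0% as lower, and gave an adjusted p of 0.9997 for each of the 28 genes here.

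The differences between groups were smaller than those between libraries of a group. The median absolute log2 difference between groups was 0.13 over the 28 genes, against 0.22 between both STZ libraries and 0.27 between both controls for the same genes. The first is a difference between means of 2 libraries, and the others are differences between single libraries. A difference of means tends to be the smaller even where groups do not differ. The 95% interval of the difference (limma) stayed within 2-fold either way for 25 of 28 genes, against 66.7% of all tested genes. Wider intervals belonged to Gabra5, Gabrb1 and Glra4, the 3 lowest of the tested genes in normalized counts. The point estimates leaned to lower values in STZ: 21 of 28 lay below 0, against 51.1% of all tested genes, with a median log2 fold change of -0.081 against -0.0057 over all tested genes. Without control 2L, 14 of the 28 lay below 0, at a median of -0.0012, and without control 4R 21 did, at a median of -0.18. In bulk retina fewer cells of a type and less RNA per cell cannot be told apart. Both STZ libraries lay below both controls for 5 genes, Gabrd, Gabrr1, Gabrr2, Glra4 and Glrb, where 14.3% of all tested genes did so, and above both controls for 2 genes, Slc12a2 and Gabrb2, again against 14.3%.

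**Figure D3:**
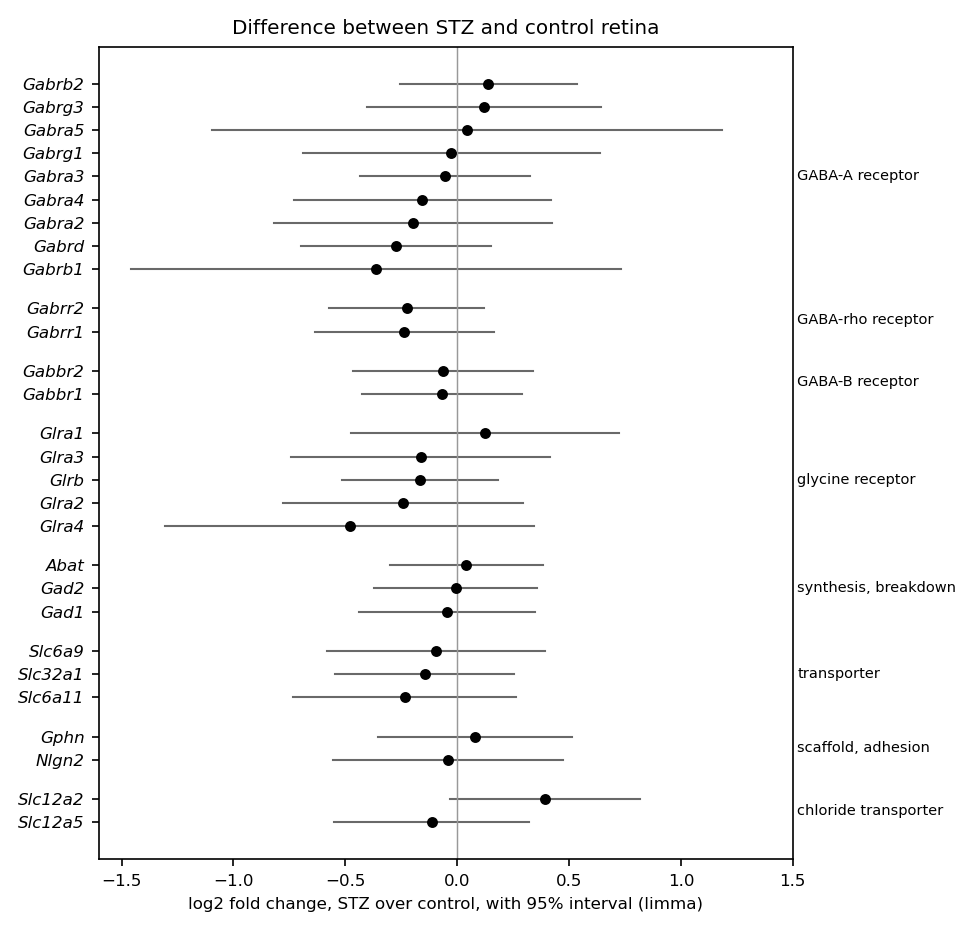
Log2 fold change of STZ over control for the 28 genes tested, with the 95% interval from limma, grouped by role. Every interval includes 0; that of Slc12a2 reaches from -0.033 to 0.82.

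The chloride transporters held the gene with the smallest p of the set. Slc12a2 encodes NKCC1, which loads chloride into cells and which epithelia also express. It had 1103 (STZ 2L) and 902 (STZ 4R) normalized counts, against 761 (control 2L) and 758 (control 4R). Both STZ libraries lay above both controls, and the controls nearly coincided. The mean was 1002 ± 142 in STZ and 760 ± 1.69 in controls (SD, n = 2). The difference, 0.39 ± 0.19 (SE) on the log2 scale, did not pass (limma, adjusted p = 0.999). The authors' deposited table gave it 0.40 with an adjusted p of 0.9997. The estimate was 0.25 without STZ 2L, the library with 5.30% lens marker counts, and 0.54 without STZ 4R. For all 12 cornea and conjunctiva markers both STZ libraries stood above both controls, against 14.3% of all tested genes. The part of these markers' tissues in the value of Slc12a2 was not tested.

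Slc12a5 pointed the other way with wide overlap. It had 29833 (STZ 2L) and 33135 (STZ 4R) normalized counts, against 37338 (control 2L) and 30996 (control 4R). The STZ libraries enclosed the lower control, and the log2 fold change of -0.11 ± 0.19 (SE) did not pass (limma, adjusted p = 0.999). Set against each other within a library, where library scaling cancels, there were 27.0 and 36.7 Slc12a5 counts per Slc12a2 count in STZ 2L and STZ 4R, against 49.0 and 40.8 in the controls tagged 2L and 4R. Both STZ ratios lay below both control ratios. On the log2 scale the ratio averaged 4.98 ± 0.31 in STZ and 5.48 ± 0.19 in controls (SD, n = 2 each), a difference of -0.51 with an exact two-sided permutation p of 0.3333, the smallest that groups of this size allow. With 1 library left out at a time the difference lay between -0.73 and -0.29.

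The rho receptor genes stand side by side on chromosome 4, Gabrr2 at 33062999 to 33095865 and Gabrr1 at 33132521 to 33163588 (mm10), and both lay below the controls in both STZ libraries. Gabrr1 had 2826 (STZ 2L) and 3655 (STZ 4R) normalized counts, against 3663 (control 2L) and 3911 (control 4R). STZ 4R came so close to control 2L that its groups were barely apart. Gabrr2 had 2033 and 2116 in STZ 2L and STZ 4R, against 2430 and 2423 in control 2L and control 4R, and here the groups stood further apart than the libraries within a group. The log2 fold changes were -0.24 ± 0.17 for Gabrr1 and -0.23 ± 0.15 for Gabrr2 (SE), with neither past the threshold (limma, adjusted p = 0.999 for both). Without STZ 2L they were -0.05 and -0.20. Of 13 bipolar cell markers, 13 had lower point estimates in STZ, against 51.1% of all tested genes. Both STZ libraries lay below both controls for 7 of them, where 14.3% of all tested genes did so. The median log2 fold change of the 13 markers was -0.17. Their summed level was 59061 and 65366 normalized counts in STZ, against 73590 and 67797 in controls. Whether the rho values followed the bipolar markers was not tested.

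Among GABA-A subunits 9 of 10 were tested, 3 with estimates above 0 and 6 below, at a median log2 fold change of -0.056. Gabrd had 814 (STZ 2L) and 846 (STZ 4R) normalized counts, against 905 (control 2L) and 1112 (control 4R), without overlap (log2 fold change -0.27 ± 0.19, SE). Gabrb2, a beta subunit of many synaptic receptors, was the opposite case, with 929 and 992 in STZ 2L and STZ 4R, against 900 and 844 in control 2L and control 4R (0.14 ± 0.17, SE). These groups too did not overlap, but the gap between STZ 2L and control 2L was smaller than that within either group. Gabra3 overlapped, with 1180 and 1233 in STZ against 1319 and 1192 in controls.

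The remaining GABA-A subunits were low. Gabrg1, Gabra2, Gabra4 and Gabrb1 lie in a cluster on chromosome 5 between 70751047 and 72149037 (mm10), and all 4 stayed under 50 normalized counts per kilobase of exon on average. Gabra4, the highest of them, averaged 42.8 ± 5.24 per kilobase and Gabrb1, the lowest, 6.72 ± 3.17 (SD over 4 libraries). Gabrb1 had 67.5 (STZ 2L) and 86.0 (STZ 4R) normalized counts, against 157 (control 2L) and 61.4 (control 4R). The controls thus enclosed both STZ values, and the log2 fold change of -0.36 ± 0.48 became 0.31 without control 2L. Gabra5 had 40.1 and 32.3 normalized counts in STZ, within the controls at 26.2 and 46.3. The gamma subunit genes Gabrg3 and Gabrg1 likewise lay inside the controls, with 413 and 393 normalized counts of Gabrg3 in STZ against 420 and 327 in controls, and 149 and 139 of Gabrg1 in STZ against 133 and 161 in controls. Gabra2 had 202 and 160 in STZ against 214 and 198 in controls, and Gabra4 had 265 and 227 in STZ against 303 and 247 in controls, both with overlap. Gabra6, known from cerebellar granule cells, had 0 reads, which allows at most 3.17 and 2.48 normalized counts in STZ 2L and STZ 4R, and 3.41 and 3.02 in control 2L and control 4R (3 reads per library, counting error only).

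Glycine receptor genes had estimates below 0 in 4 of 5 cases, at a median log2 fold change of -0.17. Glrb had 2104 (STZ 2L) and 2134 (STZ 4R) normalized counts, against 2299 (control 2L) and 2459 (control 4R). Its groups stood apart by more than either spread, at a log2 fold change of -0.17 ± 0.15 (SE), and it stayed between -0.21 and -0.12 with any library left out. The alpha subunits form the glycine binding partner of Glrb. Per kilobase of exon, Glra1 averaged 215 ± 41.7 and Glra2 155 ± 25.4, with overlapping ranges, and Glra4 and Glra3 followed at 49.8 ± 13.9 and 36.2 ± 6.05 (SD over 4 libraries). The order of these last turned with the length used, since per kilobase of coding sequence Glra3 averaged 232 and Glra4 73.2. Glra1, the alpha subunit of the synapse between AII amacrine cells and OFF bipolar cells, had 513 and 555 normalized counts in STZ, inside the controls at 623 and 384. Glra2 had 378 and 519 in STZ against 484 and 566 in controls, and Glra3 had 288 and 338 in STZ against 411 and 298 in controls, both with overlap. Glra4 had 71.7 and 94.3 in STZ against 139 and 95.6 in controls. Its groups were barely apart, and its log2 fold change of -0.48 ± 0.36 (SE), the lowest estimate of the 28, did not pass (limma, adjusted p = 0.999).

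The balance of alpha subunits to Glrb did not separate the groups. Summed alpha subunit counts per Glrb count were 0.595 and 0.706 in STZ 2L and STZ 4R, against 0.721 and 0.547 in control 2L and control 4R, so the controls enclosed the STZ libraries. The log2 ratio averaged -0.63 ± 0.18 in STZ and -0.67 ± 0.28 in controls (SD, n = 2 each; exact two-sided permutation p = 1). These sums are not corrected for length.

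The GABA-B genes overlapped. Gabbr1, the subunit that binds GABA, had 7755 (STZ 2L) and 7653 (STZ 4R) normalized counts, against 8675 (control 2L) and 7508 (control 4R). Gabbr2, the subunit that couples to the G protein, had 2919 and 3550 in STZ, against 3688 and 3066 in controls. Their log2 fold changes were -0.067 ± 0.16 and -0.063 ± 0.18 (SE), with 95% intervals of -0.43 to 0.29 and -0.47 to 0.34. Gabbr1 made up 65.0% to 69.6% of the pair's summed level per kilobase over the 4 libraries.

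Of the gene groups described, the enzymes of GABA metabolism had the median log2 fold change closest to 0 (limma), at -0.0068. This does not hold gene by gene, since Gabrg1, at -0.025, lay closer to 0 than Gad1, at -0.044, and Abat. Gad1, which makes GABA for much of the cell, had 7822 (STZ 2L) and 9140 (STZ 4R) normalized counts, against 7955 (control 2L) and 9554 (control 4R). In both groups 2L was the lower library, and the groups overlapped. Gad2, the glutamate decarboxylase linked to nerve terminals, had 1486 and 1626 in STZ against 1557 and 1566 in controls, a log2 fold change of -0.0068 ± 0.16 (SE) with a 95% interval of -0.37 to 0.36. Abat, the mitochondrial transaminase that breaks GABA down, had 5063 and 5501 in STZ against 5119 and 5142 in controls, at 0.041 ± 0.15 (SE). There were 5.26 and 5.62 Gad1 counts per Gad2 count in STZ 2L and STZ 4R, against 5.11 and 6.10 in control 2L and control 4R (exact two-sided permutation p = 1 for the log2 ratio). Per kilobase of exon Gad1 averaged 1128 ± 113 and Gad2 265 ± 9.78 (SD over 4 libraries), with ranges that did not overlap.

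All 3 transporters had estimates below 0 and all 3 overlapped. Slc6a11 had 11640 (STZ 2L) and 8809 (STZ 4R) normalized counts, against 14106 (control 2L) and 10067 (control 4R). In each group 2L was higher, and the log2 fold change of -0.23 ± 0.22 (SE) was 0.0085 without control 2L. Slc32a1 had 6351 and 5227 in STZ 2L and STZ 4R against 6976 and 5818 in control 2L and control 4R, with 2L again higher in each group. Slc6a9 had 10004 and 8199 in STZ against 11658 and 8037 in controls. Exons of 2 of these genes share bases with genes on the other strand, 24.9% of Slc32a1 with Gm14205 and 27.8% of Slc6a9 with Ccdc24, and the strand setting of the counting is not given in the sources used here, so reads of these partners cannot be told apart.

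The postsynaptic proteins overlapped as well. Gphn encodes gephyrin, the scaffold that holds glycine and GABA-A receptors, and had 1457 (STZ 2L) and 1734 (STZ 4R) normalized counts, against 1335 (control 2L) and 1695 (control 4R). Nlgn2, the neuroligin of inhibitory synapses, had 5570 and 4804 in STZ against 6666 and 4243 in controls. For Nlgn2 the controls enclosed both STZ values. The log2 fold changes were 0.08 ± 0.19 for Gphn and -0.04 ± 0.22 for Nlgn2 (SE).

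**Figure D4:**
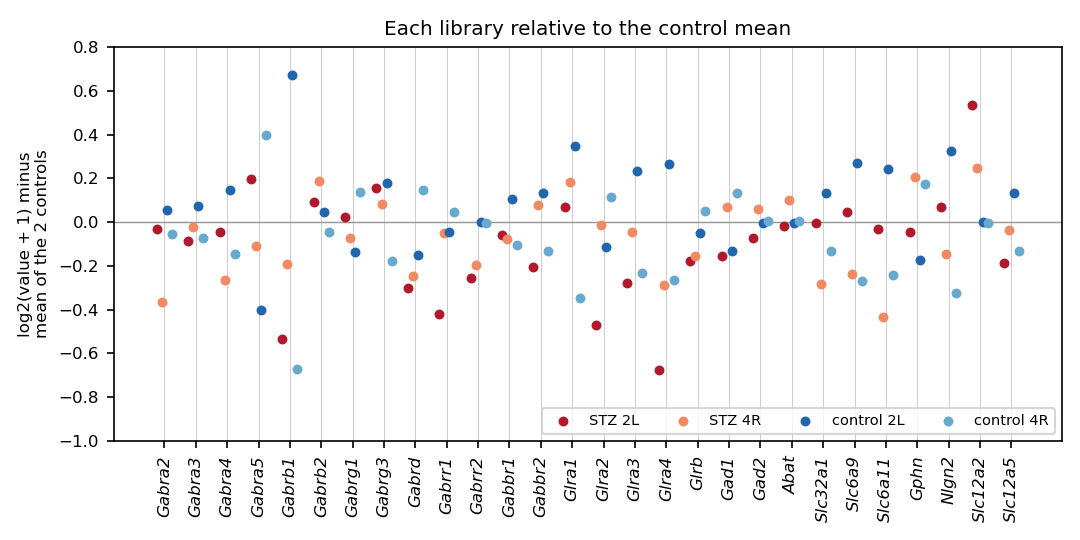
Each library's log2(value + 1) minus the mean of both controls, for the 28 genes tested, with points for STZ 2L, STZ 4R, control 2L and control 4R. Both STZ points of Slc12a2 lie above the control points, as do those of Gabrb2, those of Gabrd, Gabrr1, Gabrr2, Glra4 and Glrb lie below, and for the other 21 genes the groups overlap.

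Partner genes of the pathway gave no call either, adjusted over all tested genes in limma. Of 29 genes for receptor partners, auxiliary subunits and synaptic adhesion, 0 of 29 tested passed in either direction, with 10 estimates above 0 and 19 below and a median log2 fold change of -0.022. The smallest p there belonged to Kctd12, an auxiliary subunit of GABA-B receptors, with 174 and 79.4 normalized counts in STZ 2L and STZ 4R, against 58.0 and 67.4 in control 2L and control 4R (0.90 ± 0.44, SE; limma, adjusted p = 0.999). It was 0.34 without STZ 2L and 1.46 without STZ 4R, and STZ 2L is the library with 5.30% lens marker counts. Slitrk3, an adhesion protein of inhibitory synapses, had 460 and 635 in STZ and 762 and 607 in controls, with overlap.

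Of 24 genes for synthesis, breakdown and uptake of GABA and glycine, 0 of 24 tested passed. Estimates lay above 0 for 16 and below for 8, at a median of 0.052. Both STZ libraries lay above both controls for 3 of the 24 and below for 0, against 14.3% of all tested genes each way. The smallest p belonged to Slc6a13, the GABA transporter GAT2, known from the retinal pigment epithelium, with 1186 (STZ 2L) and 568 (STZ 4R) normalized counts, against 98.9 (control 2L) and 494 (control 4R). Both STZ libraries lay above both controls, and control 2L was far below the other 3 libraries. Its log2 fold change of 1.89 ± 0.66 (SE) did not pass (limma, adjusted p = 0.999). The estimate was 1.36 without STZ 2L, 2.42 without STZ 4R, 3.04 without control 4R and 0.73 without control 2L. Each of these fits leaves a single library in a group, so only the estimates are given. Control 2L also had the lowest share of pigment epithelium and melanocyte markers, 0.00669%, against 0.02% to 0.0298% in the other libraries, and their part in the value of Slc6a13 was not tested. Gldc, the decarboxylase of the glycine cleavage system, had 2127 (STZ 2L) and 1827 (STZ 4R) normalized counts, against 1133 (control 2L) and 1578 (control 4R). Both STZ libraries lay above both controls here too (0.56 ± 0.20, SE; limma, adjusted p = 0.999), and leaving out control 2L gave 0.32, leaving out control 4R 0.80.

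Of 19 genes for chloride and volume control, 0 of 17 tested passed, with 10 estimates above 0 and 7 below and a median of 0.063. Both STZ libraries lay above both controls for 4 of the 17 and below for 3, against 14.3% of all tested genes each way. Wnk3, a kinase known to raise NKCC1 activity and to restrain KCC2, had 464 (STZ 2L) and 459 (STZ 4R) normalized counts, against 345 (control 2L) and 339 (control 4R). Its groups stood apart by more than the spread within either, at a log2 fold change of 0.43 ± 0.21 (SE) that stayed between 0.42 and 0.44 with any library left out, yet it did not pass (limma, adjusted p = 0.999). Best2, a bestrophin anion channel of ocular epithelia, had 269 and 106 in STZ 2L and STZ 4R against 13.6 and 106 in control 2L and control 4R, with nearly equal values in both 4R libraries. Its estimate of 2.10 ± 0.85 (SE) did not pass (limma, adjusted p = 0.999). It was 0.67 without control 2L and 2.77 without STZ 4R. The list of 7 further receptor subunits had 0 of 6 tested past the threshold, with 6 estimates above 0 and a median of 0.11. Over all tested genes 51.1% of estimates lay below 0. Both STZ libraries lay above both controls for 2 of the 6 and below for 0, against 14.3% of all tested genes each way. The 2 with the smallest p were Gabre and Gabrq, both low and overlapping. Gabre, the epsilon subunit, had 21.1 and 9.10 normalized counts in STZ against 2.27 and 15.1 in controls. Gabrq, the theta subunit, had 55.9 and 33.9 in STZ against 52.3 and 21.1 in controls.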

How the data were processed

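Retinal mRNA was purified from total RNA, sequenced on Ion Torrent and processed with Torrent Suite 5.4.0, per the labels' protocols. Alignment used mm10, STAR first and Bowtie2 for what STAR left unmapped. HTSeq and Picard gave counts, per the submitters' processing notes. The deposited values are a signal: each library's gene counts over a single size factor. The authors also deposited, per gene, their log2 fold change and its error, a test score, and p-values before and after adjustment. The sources used here do not name the tool or the annotation release.

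All values (100%) were whole multiples of a library's step within 0.01 reads, and the reads so recovered entered edgeR 4.0.16, DESeq2 1.42.0 and limma-voom as alternatives. Labels match the 2L columns. They give 4L where the columns say 4R, so 4R columns were placed by the group in their name only. Ages follow the protocols (18 weeks), which the columns' tag 8W does not match.

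The main test was limma 3.58.1 (R 4.3.3) on log2(value + 1), a scale that understates changes of low genes, for genes reaching 10 in 2 or more libraries. It fitted STZ against control with a prior following mean level. Tests were two-sided, with Benjamini-Hochberg adjustment over every tested gene and a threshold of 0.05. The fit was tested on simulated data whose fold changes exceeded every estimate of the described genes. Differences as small as theirs were not simulated. Exon unions of GENCODE M21 gave the levels per kilobase. Ratios were compared by exact permutation tests.

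Members and lists were chosen with earlier results of these data known. The naming rule took every member, the 2 smallest p-values of each partner list, and a few markers.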

Additional observations from a re-analysis of the deposited data

How the results depend on the processing

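With groups of 2 libraries, depth limits little beyond the lowest subunits, and the spread between libraries sets the precision. No described gene was called under any setting run (0 higher and 0 lower), including the filter at 50, which removed Gabra5. Over the whole table the number of genes called higher was 13 with no filter on low values, 3 with robust moderation and 47 with DESeq2, and 0 otherwise with all libraries. With 1 library left out, the number called higher lay between 11 and 572, and the number called lower between 0 and 39. Each of these fits leaves a group with a single library, whose spread cannot be measured, so no conclusion is drawn from these counts. The largest counts came without STZ 4R, which leaves STZ 2L alone, and the cause was not tested. The tags 2L and 4R recur in both groups but the labels do not say that they pair animals, and deviations of same-tag libraries correlated at 0.0988. A limma fit with the tag as a replicate block called 0 genes higher and 0 lower. At an unadjusted p under 0.05 it gave 1 of the 28 described genes, a higher one. Of all 18127 tested genes it gave 476 higher and 155 lower at that threshold.

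Several estimates changed sign, none of them called, and not all of these lay near 0 (Gabrb1 -0.36, Slc6a11 -0.23, Glra3 -0.16). Gabra5 was -0.082 after quantile normalization and -0.005 with DESeq2, and Gad2 0.0032 with TMM, 0.0043 with edgeR and 0.0041 with voom. With 1 library left out the log2 fold change ranged from -0.13 to 0.017 for Gabra3, -0.35 to 0.44 for Gabra5, -1.03 to 0.31 for Gabrb1, -0.16 to 0.11 for Gabrg1, -0.0598 to 0.30 for Gabrg3, -0.17 to 0.037 for Gabbr1, -0.20 to 0.078 for Gabbr2, -0.22 to 0.47 for Glra1, -0.39 to 0.068 for Glra3, -0.18 to 0.088 for Gad1, -0.072 to 0.058 for Gad2, -0.019 to 0.10 for Abat, -0.36 to 0.17 for Slc6a9, -0.48 to 0.0085 for Slc6a11, -0.092 to 0.25 for Gphn, -0.37 to 0.29 for Nlgn2 and -0.25 to 0.0205 for Slc12a5. The median over the described genes ranged from -0.18 to -0.0012. By the longest coding length in place of exon length, the order of levels correlated with the order given at a Spearman rho of 0.97, with Slc12a5 first in both.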

Other observations

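Some of these genes were ordered by library tag alike in both groups and others were not. Of the 28 genes tested, 9 were higher in 2L than in 4R in both groups, 8 were lower in both, and 11 had opposite orders. The matching share over all tested genes was not counted, and same-tag deviations over those genes correlated at 0.0988. Among the opposite orders, 2L over 4R was -0.28 in STZ and 0.27 in controls for Gabbr2, and -0.15 and 0.27 for Slc12a5. Slc6a11 was higher in 2L by 0.40 on the log2 scale in STZ and by 0.49 in controls, Slc6a9 by 0.29 and 0.54, Slc32a1 by 0.28 and 0.26, and Nlgn2 by 0.21 and 0.65. Gad1 differed by -0.22 in STZ and -0.26 in controls, and Gphn by -0.25 and -0.34. What the tags stand for is not given in the labels, and with 2 libraries a group these orders were not tested.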
